A study of Mus musculus with 8 samples.

Results

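The 10 genes described here carry long-chain fatty acids into mitochondria and oxidise them there: Cpt1a, Slc25a20 and Cpt2 of the carnitine shuttle, the acyl-CoA dehydrogenase genes Acadvl, Acadl and Acadm, the trifunctional protein genes Hadha and Hadhb, the thiolase gene Acaa2 and the thioesterase gene Acot2. They were taken by gene symbol from the 53465 Ensembl gene IDs of the count files, and all 10 were found and passed the filter on low counts. RNA was sequenced from regulatory T cells (Tregs) polarized in culture from wild-type C57BL/6 CD4+ T cells, in 4 libraries with 50 µM BMS309403 (named FABPi by the submitters) and 4 control libraries (named Treg). BMS309403 blocks the lipid-binding pocket of fatty acid-binding proteins and was used here against FABP5. Both groups shared 72 h of culture on anti-CD3 with anti-CD28, IL-2, TGF-β and antibodies blocking IL-4, IL-12 and IFN-γ before the cultures were divided. The labels give no animal age, no vehicle and no length of exposure, so the inhibitor and its solvent cannot be told apart. The cells were selected as total CD4+ cells, with no sort for Tregs in the labels.

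Long-chain fatty acids cross the inner mitochondrial membrane as carnitine esters. CPT1 on the outer membrane makes the ester and is inhibited by malonyl-CoA, the carnitine-acylcarnitine carrier moves it inward, and CPT2 turns it back into acyl-CoA. In the matrix each turn of beta-oxidation runs through a dehydrogenation, a hydration, another dehydrogenation and a thiolytic cleavage, with enzymes that differ in the chain length they prefer. In mouse T cells, fatty acid oxidation has been linked mainly to regulatory and memory cells.

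Total counts lay between 38684721 and 42552943 in BMS309403 libraries and between 32923433 and 44644485 in control libraries, and each of the 10 genes had at least 155 counts in every library. The Treg marker Foxp3 lay between 1234 and 1261 CPM (counts per 1000000 counts of the library, scaled by TMM) in BMS309403 libraries and between 901 and 1029 CPM in control libraries. Of the 9 Treg and T cell markers, 4 were higher (Foxp3, Il2ra, Ikzf2 and Tnfrsf18), 2 were lower and 3 (Cd4, Ctla4 and Itgae) did not pass. The lower ones were the T cell receptor complex genes Cd3e, at 191 ± 11.3 CPM in BMS309403 and 263 ± 10.9 CPM in control libraries, and Cd3d, at 173 ± 8.76 and 222 ± 7.77 CPM (SD, n = 4 each; edgeR adjusted p = 2.54e-05 and 8.49e-05). Summed B cell, CD8, NK cell and myeloid markers were each below 15 CPM in every library. The NK cell list, with Ncr1 at 0 counts, summed to between 3.43 and 6.21 CPM in BMS309403 libraries and between 1.85 and 3.56 CPM in control libraries. Both tested genes of that list, Klrk1 and Eomes, were higher (edgeR adjusted p = 0.0171 and 0.0131). Of the B cell list 1 of 5 tested genes was lower (Cd79b, edgeR adjusted p = 0.00691), and of the myeloid list 1 of 3 (Adgre1, edgeR adjusted p = 0.00094). Of the CD8 list 0 of 2 passed. The stromal list, nearly all of it Pecam1, which T cells can express too, summed to between 99.5 and 108 CPM in BMS309403 libraries and between 115 and 124 CPM in control libraries. Col1a2 of that list went the other way, at 4.10 ± 0.769 CPM in BMS309403 and 1.99 ± 0.167 CPM in control libraries (SD, n = 4 each; edgeR adjusted p = 0.000208). The part of these lists in the results below was not tested. On the second principal component the libraries numbered 1 in both groups lay apart, at 16.4 for BMS309403 and 26.0 for control, while control replicate 4 lay at -16.7 and the other 5 between -8.86 and 1.42. In bulk RNA, fewer cells of a type and less RNA per cell cannot be told apart. Fabp5, the gene of the intended target, averaged 153 ± 18.3 CPM in BMS309403 and 178 ± 23.7 CPM in control libraries (SD, n = 4 each; edgeR adjusted p = 0.0934). Its call depended on the setting: 5 of 17 alternatives passed, among them the replicate block (adjusted p = 1.29e-05) and leaving out BMS309403 replicate 1 (0.0368) or control replicate 4 (0.0288). Leaving out 1 library gave log2 fold changes between -0.29 and -0.14 and adjusted p up to 0.242.

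The sequences shown are the stretches before the annotated starts of Acot2, Acadl, Acadm and the Hadha-Hadhb pair, which carry most of the changes described, as far as they lie outside every annotated exon. They come from RefSeq windows of the GRCm38.p6 build and are printed on the strand of the gene. Capitals mark the hexamer AGGTCA or its reverse complement, the element that nuclear receptors such as PPAR bind in pairs. The genes of the 2 trifunctional protein subunits start head to head, and the 85 bases between their starts are printed on the plus strand, which is that of Hadhb.
Acot2, chr12:83987611-83987860, plus strand: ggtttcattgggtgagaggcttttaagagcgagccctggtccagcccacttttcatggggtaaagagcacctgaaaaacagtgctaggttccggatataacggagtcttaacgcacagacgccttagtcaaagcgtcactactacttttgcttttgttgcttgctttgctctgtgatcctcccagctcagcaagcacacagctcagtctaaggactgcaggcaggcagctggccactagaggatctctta
Acadl, chr1:66863278-66863559, minus strand: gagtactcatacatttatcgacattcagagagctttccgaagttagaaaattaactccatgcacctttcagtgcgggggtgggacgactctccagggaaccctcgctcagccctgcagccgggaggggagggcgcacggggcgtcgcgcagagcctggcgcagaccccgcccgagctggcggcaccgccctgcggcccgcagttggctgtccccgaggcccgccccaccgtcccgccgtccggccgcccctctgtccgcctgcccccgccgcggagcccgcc
Acadm, chr3:153944633-153944893, minus strand: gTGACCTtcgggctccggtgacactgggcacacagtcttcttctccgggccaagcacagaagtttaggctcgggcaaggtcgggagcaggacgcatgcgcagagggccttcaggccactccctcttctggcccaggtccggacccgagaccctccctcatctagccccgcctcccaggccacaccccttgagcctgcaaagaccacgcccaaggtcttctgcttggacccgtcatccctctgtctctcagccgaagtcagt
Hadha-Hadhb, chr5:30155163-30155247, plus strand: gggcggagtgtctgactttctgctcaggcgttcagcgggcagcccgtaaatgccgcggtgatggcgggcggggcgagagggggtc

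In the full 300-base windows around RefSeq starts, read on both strands, AGGTCA occurred in 3 of the 9 genes matched (Cpt1a, Acadm and Acadvl) and in 16.3% of 32851 windows of all genes. Acaa2, which fell furthest among the members, was the gene without a matched window and was not searched. The direct repeat of that hexamer with 1 spacer base, the usual PPAR element, occurred in 0 of the 9 and in 0.0396% of all windows. The estrogen-related receptor element TCAAGGTCA, which also contains it, the cyclic AMP element TGACGTCA and the NRF1 palindrome were in 0 of the 9, against 0.423%, 1.79% and 0.971% of all windows. These matches describe letters in a window and nothing of binding.

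Acot2 and Acadl rose, Acadm, Hadhb and Acaa2 fell, and Cpt1a, Slc25a20, Cpt2, Acadvl and Hadha did not pass the test. Thus 2 of 10 were higher and 3 of 10 lower by edgeR's quasi-likelihood test at an adjusted p under 0.05, while 18.7% of all 14443 tested genes were higher and 18.1% lower. Counted in either direction, 5 of 10 changed, against 36.8% of tested genes. The groups did not overlap for 6 of the 10, against 33.8% of tested genes. Among 10 genes these shares lie too near those of all genes to say anything particular to the pathway. The median log2 fold change was -0.07 for the 10 genes and 0.01 for all tested genes. With the replicate number as a block, 2 were higher and 5 lower, beside 26.6% and 25.8% of tested genes. Without both libraries numbered 1, 2 were higher and 4 lower, beside 21.2% of tested genes in each direction.

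The summed level of the 10 genes was 647, 632, 676 and 653 CPM in BMS309403 replicates 1 to 4, against 656, 679, 689 and 677 CPM in control replicates 1 to 4. The groups overlap, since BMS309403 replicate 3 lay above control replicate 1, while within each of the 4 same-numbered pairs the BMS309403 library was the lower. No test was run on the sum. Within that sum Acadl took 20.2% ± 0.711 of the counts in BMS309403 and 15.9% ± 0.328 in control libraries (SD, n = 4 each). Acaa2 took 9.79% ± 0.573 in BMS309403 and 12.7% ± 0.373 in control libraries, and Acot2 1.49% ± 0.172 against 0.715% ± 0.0299.

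**Figure D1:**
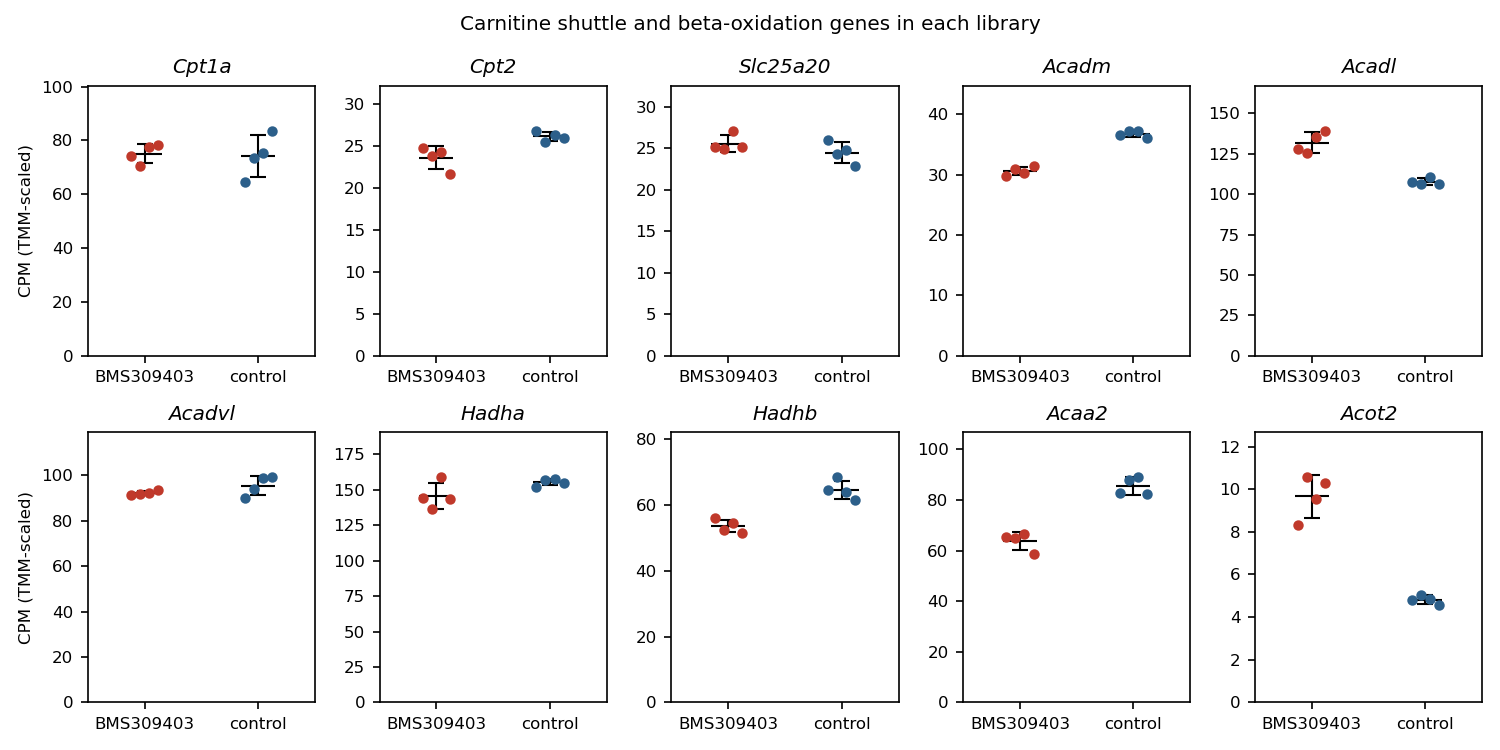
CPM, scaled by TMM, of the 10 genes in each library (points), with the mean and SD of 4 libraries as bars; each axis starts at 0. Acot2 and Acadl lie higher in all 4 BMS309403 libraries than in any control library, and Cpt2, Acadm, Hadhb and Acaa2 lie lower in all 4.

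Of the carnitine shuttle, no gene passed the test. Cpt1a (ENSMUSG00000024900, chromosome 19, 3322334 to 3385733, plus strand, GRCm38) encodes the liver-type CPT1, the entry gate. It had 74.2, 70.5, 77.4 and 78.3 CPM in BMS309403 libraries, against 64.4, 73.6, 75.4 and 83.5 CPM in control libraries. The BMS309403 values all lay within the control range. The log2 fold change was 0.02 (95% interval -0.13 to 0.17, edgeR adjusted p = 0.878). The sign turned without control replicate 1 (log2 fold change -0.05, adjusted p = 0.527) and without BMS309403 replicate 4 (-0.0047, adjusted p = 0.970).

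Slc25a20 (chromosome 9, 108662088 to 108684641, plus strand) encodes the carnitine-acylcarnitine carrier. It had 25.1, 25.0, 27.1 and 25.2 CPM in BMS309403 libraries, against 26.0, 24.4, 24.8 and 22.9 CPM in control libraries. The groups overlap, and replicate 3 was the highest of the treated libraries. The log2 fold change was 0.06 (95% interval -0.06 to 0.18, edgeR adjusted p = 0.393), and between 0.03 and 0.09 with 1 library left out.

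Cpt2 (chromosome 4, 107903981 to 107923610, minus strand) encodes the inner-membrane transferase. It had 24.8, 23.9, 24.3 and 21.7 CPM in BMS309403 libraries, against 26.8, 25.5, 26.4 and 26.1 CPM in control libraries. All treated values lay below all control values, and replicate 4 was the lowest. Its log2 fold change of -0.15 (SE 0.05) had an edgeR adjusted p = 0.0512. The adjusted p was 0.0122 with the replicate block, 0.0472 by DESeq2 and 0.0377 without BMS309403 replicate 1. Cpt2 thus lay at the threshold, on either side of it by setting.

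The acyl-CoA dehydrogenase genes moved in different directions. Acadl (ENSMUSG00000026003, chromosome 1, 66830839 to 66863277, minus strand) encodes the long-chain enzyme. It had 128, 125, 135 and 139 CPM in BMS309403 libraries, against 107, 106, 111 and 106 CPM in control libraries. Every treated library lay above every control library. Acadl rose 1.22-fold (log2 fold change 0.29, SE 0.04, edgeR adjusted p = 0.000239).

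Acadm (ENSMUSG00000062908, chromosome 3, 153922357 to 153944632, minus strand) encodes the medium-chain enzyme. It had 29.8, 30.9, 30.3 and 31.4 CPM in BMS309403 libraries, against 36.5, 37.2, 37.2 and 36.0 CPM in control libraries. The groups did not overlap and each spanned less than 2 CPM. Acadm fell by 0.26 on the log2 scale (SE 0.04, edgeR adjusted p = 0.000565).

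Acadvl (chromosome 11, 70010183 to 70015411, minus strand) encodes the very-long-chain enzyme of the inner membrane. It had 91.3, 91.8, 92.3 and 93.5 CPM in BMS309403 libraries, against 89.97, 94.0, 98.7 and 99.0 CPM in control libraries. Control replicate 1 lay below all treated libraries and the groups overlapped, with a log2 fold change of -0.05 (95% interval -0.14 to 0.04, edgeR adjusted p = 0.376). With 1 library left out it lay between -0.08 and -0.03. On the opposite strand, exons of Dvl2 cover 1151 bases of Acadvl exons. As no source used here gives the strand setting of the counting, the split of reads between them is uncertain. Dvl2 averaged 36.4 ± 1.34 CPM in BMS309403 and 40.1 ± 1.53 CPM in control libraries (SD, n = 4 each).

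Counts of the medium-chain and the long-chain gene can also be set against each other within a library. The ratio of Acadm to Acadl counts was 0.232, 0.247, 0.225 and 0.226 in BMS309403 libraries, against 0.341, 0.349, 0.336 and 0.339 in control libraries. The groups did not overlap, with a log2 difference of -0.55. The 3 ratios given here and below were chosen after the genes' values were seen, so they are a description with no test. Being counts of the same library, such ratios do not depend on the scaling between libraries.

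The 2 subunit genes of the trifunctional protein, which carries out the last 3 steps on long chains, were followed next. Hadha (ENSMUSG00000025745, chromosome 5, 30118304 to 30155162, minus strand) encodes the alpha subunit with the hydratase and dehydrogenase activities. It had 144.5, 136.5, 158.7 and 143.5 CPM in BMS309403 libraries, against 152, 157, 158 and 155 CPM in control libraries. BMS309403 replicate 3 lay above all control libraries and the other 3 below them. The log2 fold change was -0.09 (95% interval -0.20 to 0.01, edgeR adjusted p = 0.143), and the adjusted p was 0.0290 without BMS309403 replicate 3 (log2 fold change -0.14) and 0.0299 with the replicate block.

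Hadhb (ENSMUSG00000059447, chromosome 5, 30155248 to 30184593, plus strand) encodes the beta subunit with the thiolase activity. It had 55.9, 52.5, 54.5 and 51.6 CPM in BMS309403 libraries, against 64.7, 68.4, 63.9 and 61.7 CPM in control libraries. All 4 treated values lay below all control values. Hadhb fell 1.21-fold (log2 fold change -0.27, SE 0.05, edgeR adjusted p = 0.000755).

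The ratio of Hadhb to Hadha counts was 0.387, 0.385, 0.343 and 0.360 in BMS309403 libraries, against 0.425, 0.436, 0.405 and 0.398 in control libraries. The groups did not overlap, and the log2 difference was -0.17. The starts of this head-to-head pair lie at the ends of the 85-base stretch printed above. Of the 50-base windows of the longest coding Hadhb transcript, 62.4% also occur in other annotated transcripts, nearly all in the pseudogene Gm13910. How the authors treated reads with several matches was not stated in these sources, so the Hadhb level is uncertain. Gm13910 itself was counted at 0.812 ± 0.179 CPM in BMS309403 and 1.03 ± 0.182 CPM in control libraries (SD, n = 4 each). Of Hadha windows 0.655% were shared, with Garem2.

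The third ratio, Cpt2 to Cpt1a, was 0.334, 0.338, 0.314 and 0.277 in BMS309403 libraries, against 0.416, 0.347, 0.349 and 0.312 in control libraries. These groups overlapped, with a log2 difference of -0.17, while the ratio was lower in the BMS309403 library of each of the 4 same-numbered pairs. Leaving out 1 library gave log2 differences between -0.23 (without control replicate 4) and -0.09 (without control replicate 1).

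**Figure D2:**
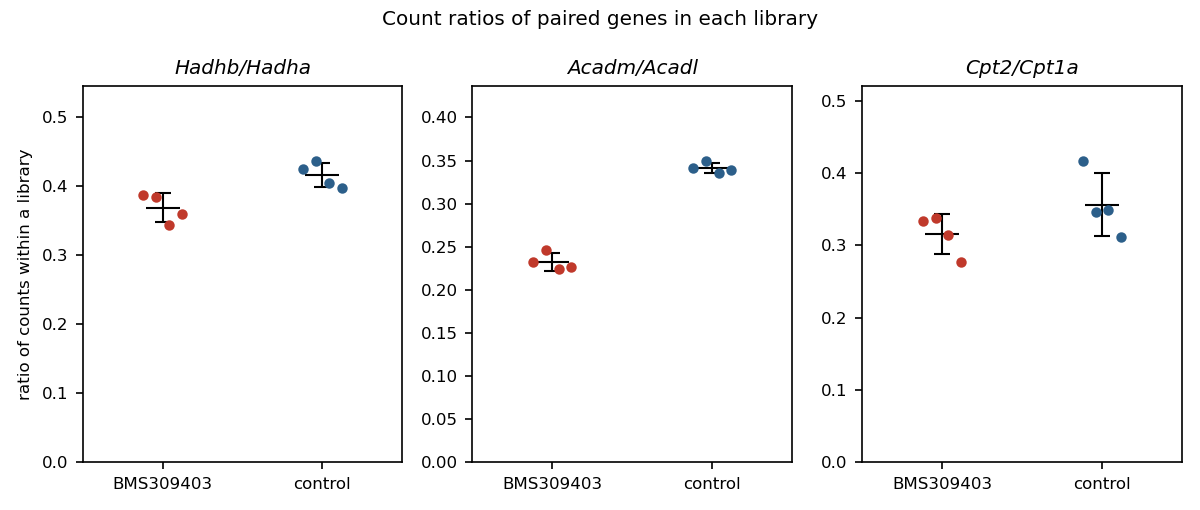
Ratios of raw counts within each library (points) for 3 gene pairs, with the mean and SD of 4 libraries as bars and axes from 0. Hadhb/Hadha and Acadm/Acadl are lower in all 4 BMS309403 libraries than in any control library, while Cpt2/Cpt1a overlaps.

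Acaa2 (ENSMUSG00000036880, chromosome 18, 74779197 to 74806208, plus strand), a matrix 3-ketoacyl-CoA thiolase, fell furthest among the 10 genes. It had 65.3, 64.8, 66.4 and 58.6 CPM in BMS309403 libraries, against 82.9, 88.0, 88.9 and 82.3 CPM in control libraries. All treated libraries lay below all control libraries, with BMS309403 replicate 4 the lowest. The fall was 1.34-fold (log2 fold change -0.42, SE 0.05, edgeR adjusted p = 4.29e-05).

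Acot2 (ENSMUSG00000021226, chromosome 12, 83987861 to 83993873, plus strand) encodes a matrix thioesterase that splits long-chain acyl-CoA into fatty acid and CoA. It had 8.32, 10.6, 9.52 and 10.3 CPM in BMS309403 libraries, against 4.80, 5.06, 4.85 and 4.59 CPM in control libraries. These values rest on 327 to 455 counts in treated and 155 to 225 counts in control libraries. Every treated library lay above every control library, and replicate 1 was the lowest of the treated ones. Acot2 rose 2.00-fold (log2 fold change 1.00, SE 0.09, edgeR adjusted p = 6.58e-06).

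Near copies of Acot2 lie beside it on the chromosome, and 27.7% of its 50-base windows occur in other transcripts, mostly in those of Acot1, the cytosolic form. Acot1 was counted at 0.382, 0.232, 0.388 and 0.385 CPM in BMS309403 libraries, against 0.341, 0.607, 0.446 and 0.349 CPM in control libraries. These groups overlapped, with a log2 fold change of -0.36 (95% interval -0.95 to 0.24, edgeR adjusted p = 0.328). How reads common to Acot1 and Acot2 were assigned is uncertain for the reason given for Hadhb.

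**Figure D3:**
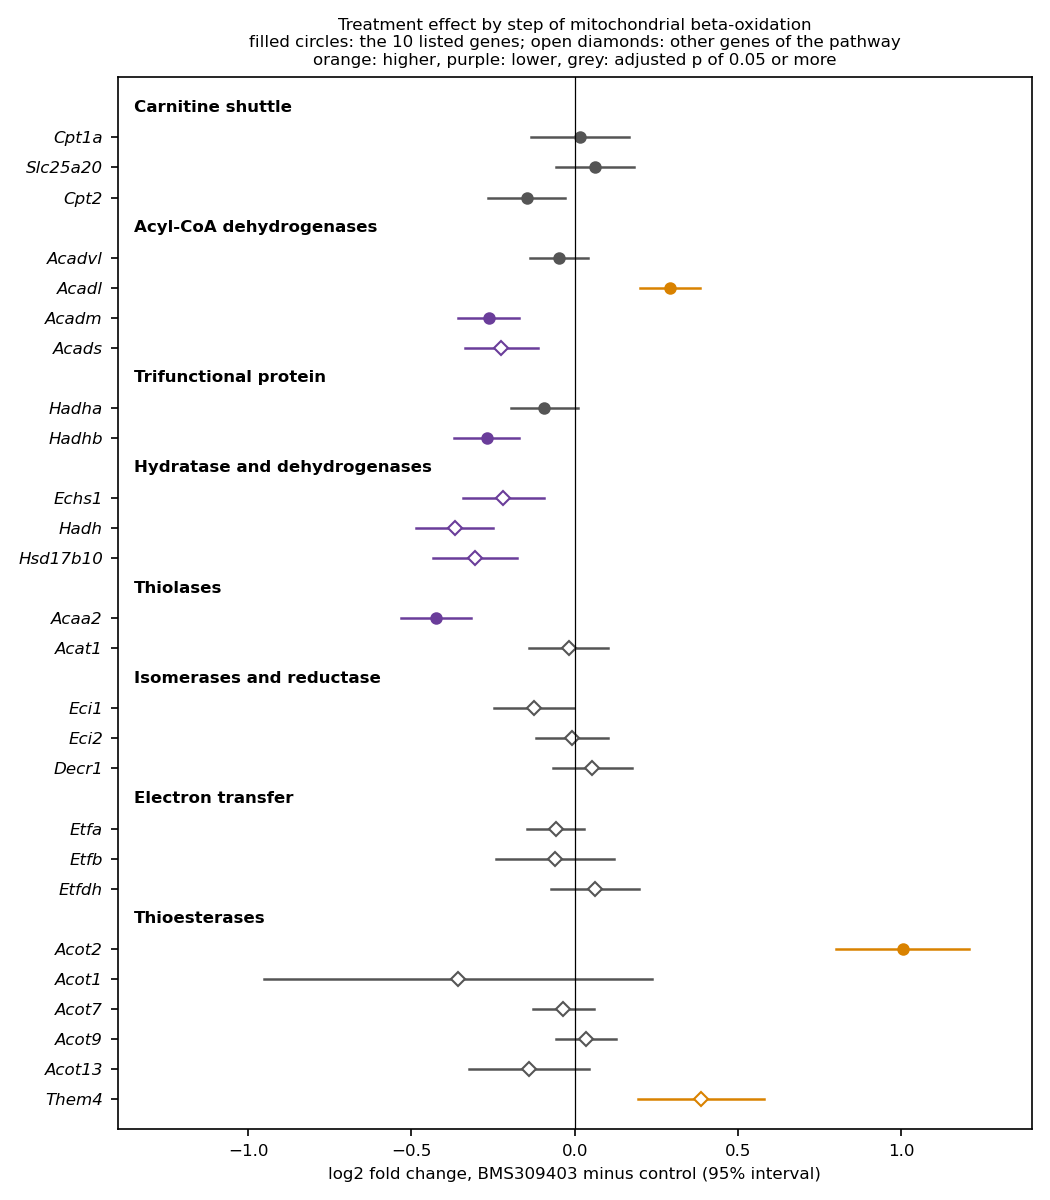
Log2 fold changes (BMS309403 minus control) with 95% intervals for the 10 genes (filled circles) and a selection of other genes of the pathway (open diamonds), by step. Cpt1a and Slc25a20 lie near 0, Cpt2 lies at -0.15 with its interval below 0, and Acot2 at 1.00 is the furthest to the right. Among the genes drawn, the falls that passed the test are those of Acadm, Acads, Hadhb, Echs1, Hadh, Hsd17b10 and Acaa2. Acot6, which also fell, is not drawn.

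Levels of different genes were compared as CPM per kilobase of merged exons. In control libraries Acaa2 (56.4 ± 2.25) and Acadl (53.7 ± 1.05) came first and their ranges overlapped (SD, n = 4 each). Acadvl (35.5 ± 1.60) and Hadha (17.8 ± 0.273) followed, each apart from its neighbours. Cpt2 (10.9 ± 0.232), Hadhb (9.80 ± 0.425), Cpt1a (9.71 ± 1.02) and Acadm (9.39 ± 0.143) lay close, and the range of Cpt1a overlapped those of the other 3. Slc25a20 (5.06 ± 0.259) and Acot2 (2.20 ± 0.0870) were the lowest, each apart from its neighbours.

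In BMS309403 libraries Acadl led at 65.8 ± 3.13 CPM per kilobase and Acaa2 came next at 42.1 ± 2.32 CPM per kilobase, with no overlap between them. Acot2 stayed last of the 10 at 4.41 ± 0.459 CPM per kilobase. With the length of the longest coding transcript in place of merged exons, Hadhb in control libraries was at 31.6 and Cpt2 at 11.0 CPM per kilobase. Hadhb then ranked above Cpt2 and above Cpt1a and Acadm. Slc25a20, at 13.75 CPM per kilobase by that length in control libraries, then also ranked above Cpt2. In BMS309403 libraries, by that length, Acadvl at 42.55 and Acaa2 at 42.06 CPM per kilobase came after Acadl at 68.8, so Acaa2 then ranked just behind Acadvl. The merged exons of Hadhb span 6595 bases and its longest coding transcript 2048 bases.

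**Figure D4:**
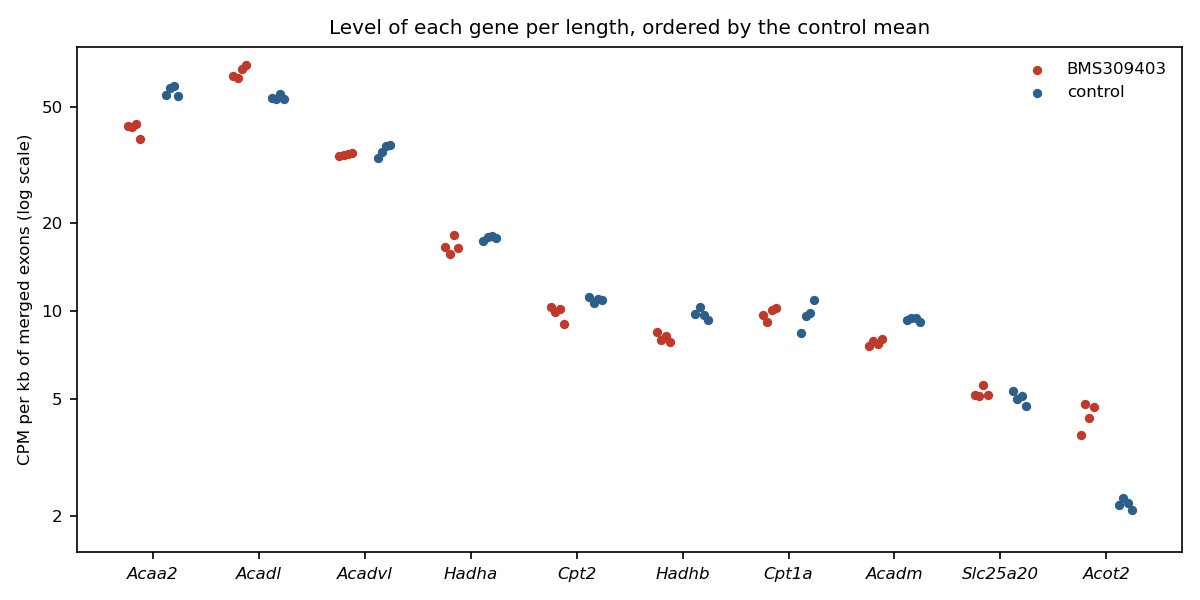
CPM per kilobase of merged exons in each library (points) on a log axis, with genes ordered by the control mean. Acadl and Acaa2 stand at the top in both groups. Their ranges overlap in control libraries, while Acadl lies above Acaa2 in BMS309403 libraries. Acot2 is at the bottom in both groups.

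Other enzymes of the mitochondrial pathway were taken from a list of 14 genes, all tested, of which 1 was higher and 4 were lower (with the replicate block 1 and 5). The falls were those of Hadh, the dehydrogenase of medium and short chains, Hsd17b10, a related dehydrogenase, Acads, the short-chain acyl-CoA dehydrogenase, and Echs1, the short-chain hydratase. Hadh had 41.6, 40.9, 45.7 and 40.1 CPM in BMS309403 libraries, against 54.3, 55.6, 56.6 and 50.6 CPM in control libraries, without overlap. It was 1.29-fold lower, Hsd17b10 1.24-fold, Acads 1.17-fold and Echs1 1.16-fold lower (edgeR adjusted p = 0.000257, 0.00169, 0.00465 and 0.0102). The single rise was that of Acad8, an enzyme of valine breakdown named after its values were seen, at 20.97 ± 1.74 CPM in BMS309403 and 18.1 ± 1.02 CPM in control libraries (SD, n = 4 each; edgeR adjusted p = 0.0349). Acad8 lost its call without BMS309403 replicate 2 (adjusted p = 0.0890), 3 (0.0530) or 4 (0.110), or control replicate 2 (0.0894) or 3 (0.102). The other 9 did not pass without the block; for Acat1, a thiolase of the last turn, the log2 fold change was -0.02 and its 95% interval -0.14 to 0.10. The median log2 fold change of the 14 was 0.00, beside 0.01 for all tested genes. Beside the counts of this list and of those below stand 18.7% of all tested genes higher and 18.1% lower. With the replicate block these shares of all tested genes were 26.6% and 25.8%.

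Electron transfer flavoprotein and its oxidoreductase take electrons from the acyl-CoA dehydrogenases. Of 5 genes in that list 0 passed edgeR's test, with 1 passing with the replicate block. Etfa averaged 76.2 ± 2.48 CPM in BMS309403 and 79.3 ± 2.08 CPM in control libraries, and Etfdh 63.1 ± 4.37 and 60.4 ± 4.21 CPM (SD, n = 4 each).

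In the list of carnitine supply and other carnitine acyltransferases, 1 of 8 tested genes was higher and 2 were lower. Slc22a5, the plasma membrane carnitine transporter, rose 1.22-fold, with 37.0 ± 2.37 CPM in BMS309403 and 30.5 ± 2.90 CPM in control libraries (SD, n = 4 each; edgeR adjusted p = 0.00876). Tmlhe and Aldh9a1, enzymes of carnitine synthesis, were 1.21-fold and 1.14-fold lower (edgeR adjusted p = 0.0125 and 0.0245). Aldh9a1 lost its call without BMS309403 replicate 2 (adjusted p = 0.0778) or 4 (0.0791), or control replicate 3 (0.0560). Cpt1b, the muscle-type CPT1, was at 0.484 ± 0.0613 CPM in BMS309403 and 0.594 ± 0.130 CPM in control libraries, and Bbox1 had 0 counts in all 8.

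Peroxisomes shorten very long chains with enzymes of their own, and 2 of 13 tested genes of that list were lower and 0 higher (with the replicate block 3 and 1). Hsd17b4, the bifunctional enzyme, was 1.09-fold lower, with 50.7 ± 1.02 CPM in BMS309403 and 55.5 ± 0.892 CPM in control libraries (SD, n = 4 each; edgeR adjusted p = 0.0227). It lost its call without BMS309403 replicate 2 (adjusted p = 0.0554), 3 (0.0587) or 4 (0.0664), or control replicate 3 (0.0662). The same held with no filter on low counts (edgeR adjusted p = 0.112).

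Of the other acyl-CoA thioesterases, 8 of 13 genes were tested, with 1 higher and 1 lower. Acot6, a neighbour of Acot2, was 2.09-fold lower, at 0.948 ± 0.0475 CPM in BMS309403 and 2.00 ± 0.366 CPM in control libraries (SD, n = 4 each; edgeR adjusted p = 0.000353). Its 36 to 40 counts in treated and 70 to 80 counts in control libraries make it a low gene. Them4 rose 1.31-fold (edgeR adjusted p = 0.00516). The abundant Acot7 and Acot9 had log2 fold changes of -0.03 (95% interval -0.13 to 0.06) and 0.03 (-0.06 to 0.13).

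Malonyl-CoA, the inhibitor of CPT1, is made by acetyl-CoA carboxylases and held down by the kinase AMPK. Of 10 tested genes of that list 1 was higher and 3 were lower (with the replicate block 3 and 4). Acacb, the carboxylase at the mitochondrial surface, had 2.14, 2.30, 1.81 and 1.83 CPM in BMS309403 libraries, against 2.91, 3.46, 3.60 and 3.57 CPM in control libraries. The groups did not overlap and Acacb was 1.68-fold lower (edgeR adjusted p = 0.000722). Prkag2, an AMPK gamma subunit gene, was 1.17-fold lower (edgeR adjusted p = 0.00274). Acaca, the cytosolic carboxylase and the more abundant one in counts, was 1.11-fold lower (edgeR adjusted p = 0.0373) and Prkaa1, an AMPK catalytic subunit gene, 1.09-fold higher (edgeR adjusted p = 0.0395). Acaca lost its call without BMS309403 replicate 2, 3 or 4 or control replicate 1 or 2 (adjusted p between 0.0556 and 0.105). The Acaca call was also lost with scaling by total counts only (edgeR adjusted p = 0.0503) and with no filter on low counts (0.0598). Prkaa1 lost its call without BMS309403 replicate 1, 2 or 4 or control replicate 2, 3 or 4 (adjusted p between 0.0505 and 0.117). The Prkaa1 call was also lost with DESeq2 size factors (edgeR adjusted p = 0.05) and with no filter on low counts (0.0963). By DESeq2's own test its adjusted p was 0.0522. For Mlycd, which breaks malonyl-CoA down, the log2 fold change was -0.13 and its 95% interval -0.29 to 0.03.

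Nuclear receptors such as the PPARs, with their coregulators, control beta-oxidation genes in other tissues. Of 10 tested genes of that list, 3 were higher and 3 lower (with the replicate block 4 and 3). Rxra, the partner receptor of PPARs, had 49.7, 44.5, 45.5 and 39.6 CPM in BMS309403 libraries, against 27.8, 26.6, 24.6 and 23.3 CPM in control libraries, without overlap. It rose 1.75-fold (log2 fold change 0.81, SE 0.07, edgeR adjusted p = 6.36e-06). Nrip1, a corepressor of nuclear receptors, had 46.8, 50.2, 46.1 and 48.4 CPM in BMS309403 libraries, against 124, 141, 136 and 149 CPM in control libraries. It was 2.87-fold lower (log2 fold change -1.52, SE 0.06, edgeR adjusted p = 5.42e-09).

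Pparg was 2.89-fold lower at 0.594 ± 0.0885 CPM in BMS309403 and 1.74 ± 0.268 CPM in control libraries (SD, n = 4 each; edgeR adjusted p = 4.71e-05). With 21 to 31 counts in treated and 62 to 67 counts in control libraries, Pparg is a low gene. Pprc1, a PGC-1-related coactivator gene, rose 1.26-fold (edgeR adjusted p = 0.00698). Rxrb, named after its values were seen, was 1.08-fold lower (edgeR adjusted p = 0.0466). Rxrb lost its call without BMS309403 replicate 1, 2, 3 or 4 or control replicate 2, 3 or 4 (adjusted p between 0.0599 and 0.111). The Rxrb call was also lost with upper quartile scaling (edgeR adjusted p = 0.0820), with total counts only (0.117) and with no filter on low counts (0.190). Ppard, the PPAR gene with the highest count, averaged 65.5 ± 3.19 CPM in BMS309403 and 62.1 ± 3.59 CPM in control libraries (log2 fold change 0.08, 95% interval -0.04 to 0.19). Ppara had 2 counts over the BMS309403 and 2 over the control libraries, and Ppargc1a 15 and 4, too few to test.

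Of the PPAR targets outside beta-oxidation, 4 of 15 genes were high enough to test, with 1 higher and 1 lower (with the replicate block 1 and 2). Cd36, a fatty acid transporter, had 5.83, 3.80, 4.78 and 4.11 CPM in BMS309403 libraries, against 1.46, 0.966, 0.714 and 0.449 CPM in control libraries. The groups did not overlap, and Cd36 rose 5.22-fold (edgeR adjusted p = 2.35e-05). That fold rests on 164 to 229 counts in treated and only 18 to 47 counts in control libraries. Ucp2, an inner-membrane carrier gene, was 1.48-fold lower, at 621 ± 63.6 CPM in BMS309403 and 918 ± 49.1 CPM in control libraries (SD, n = 4 each; edgeR adjusted p = 7.28e-05). Plin2, a lipid droplet gene, and Angptl4 did not pass, with log2 fold changes of -0.05 (95% interval -0.31 to 0.22) and -0.27 (-0.51 to -0.03; edgeR adjusted p = 0.0716). Pdk4, a strong PPAR target in liver, had 5 counts over the BMS309403 libraries and 2 over the control libraries.

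In the list of ketone body and acetyl-CoA handling, the genes next to the end product of beta-oxidation, 6 of 6 tested genes were lower, with a median log2 fold change of -0.53. Acss1 and Acss2, the mitochondrial and the cytosolic acetyl-CoA synthetase, were 1.88-fold and 1.54-fold lower (edgeR adjusted p = 0.000728 and 0.00167). Oxct1, which activates acetoacetate, was 1.35-fold lower, with 232 ± 19.8 CPM in BMS309403 and 313 ± 15.2 CPM in control libraries (SD, n = 4 each; edgeR adjusted p = 0.000179). Bdh2 was 1.69-fold lower (edgeR adjusted p = 0.000275). Bdh1, named after its values were seen, was 1.19-fold lower (edgeR adjusted p = 0.00399). Of the deacylases Sirt3, Sirt4 and Sirt5, which act on these enzymes, 0 of 3 passed edgeR's test, and 1 was higher with the replicate block.

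Over all 10 lists, with each gene counted once, 8 of 81 tested genes were higher and 22 lower, beside 18.7% and 18.1% of all tested genes. With the replicate block 13 were higher and 27 lower, beside 26.6% and 25.8% of all tested genes. The count of higher genes was 5 without BMS309403 replicate 2, control replicate 2 or control replicate 3. In these settings the count of lower genes fell too, to 17, 19 and 18. Of all tested genes at most 2126 were then higher, beside 2694 with all libraries, and fewer were lower as well. The drop to 5 is therefore not particular to these lists.

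The genes with the pattern closest to that of the 2 members that changed most were sought among 9518 genes averaging at least 5 CPM. Likeness was the root mean square difference over the 8 libraries of log2 CPM centred on each gene's mean. For Acaa2 the closest were She (0.0225), Ugdh (0.0246) and Vhl (0.0258), with log2 fold changes of -0.39, -0.40 and -0.45. For Acot2, Cd83 (0.0588) and Mex3a (0.0783) were among the closest, with log2 fold changes of 0.99 each.

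**Figure D5:**
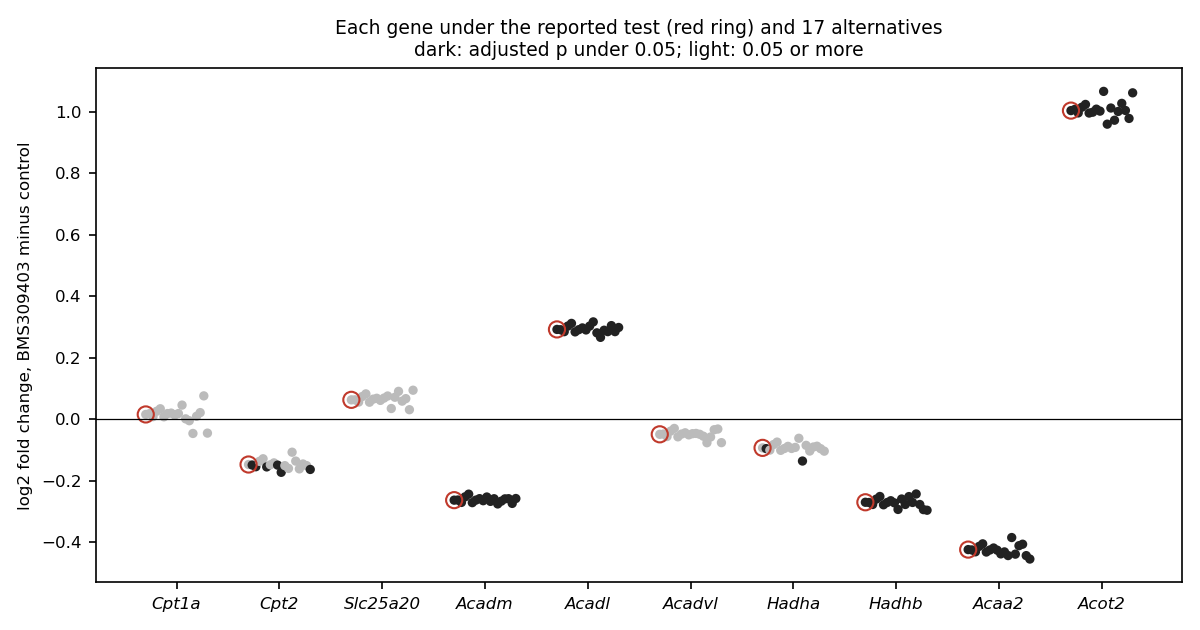
Log2 fold change (BMS309403 minus control) of the 10 genes under the reported test (red ring) and 17 alternatives (points), dark where the adjusted p was under 0.05. Acadm, Acadl, Hadhb, Acaa2 and Acot2 are dark under every setting shown, Cpt2 and Hadha under some, and Cpt1a, Slc25a20 and Acadvl under none.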

How the data were processed

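The authors deposited a file of raw counts per Ensembl gene for each of the 8 libraries. Per the labels' protocols the libraries were stranded poly(A) libraries. The submitters' processing notes name STAR, featureCounts, DESeq2, deepTools and the GRCm38 build, without versions or roles. Symbols, coordinates and exon lengths came from GENCODE M21 on that build and matched 53360 of 53465 IDs. Promoter windows came from RefSeq.

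Sample titles gave the groups and the replicate numbers. No label says that replicates were separate mice or cultures, and the spread behind each p-value may therefore be technical. Replicates differed by more than sampling noise (chi-square per degree of freedom of at least 3.08).

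All genes were tested with edgeR 4.0.16 (R 4.3.3): filterByExpr, TMM, a quasi-likelihood F-test on treatment alone, Benjamini-Hochberg adjustment over 14443 genes and a threshold of 0.05. The SE came from the F statistic. Intervals of 95% used the t distribution with the test's degrees of freedom and are not adjusted. Same-numbered libraries deviated together, with correlations of 0.384, 0.145, 0.106 and 0.264 for numbers 1 to 4. Each was over 0.1, which was taken as a sign of possible pairing, though no label states it. The reported test still used treatment alone, with the replicate block as an alternative. BMS309403 replicate 2 went more with control replicate 4 (0.208) than with control replicate 2 (0.145), so the pairing is uncertain. The fit was tested on simulated data with far fewer changed genes than were called here and no effect of replicate number. That test therefore does not cover the pairing.

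Alternatives were DESeq2 1.42.0, limma-voom (limma 3.58.1), other scalings, other filters, the replicate block and leaving out libraries. The members and gene lists were chosen with earlier results of these data known. Genes named are all members, up to 4 called genes a list by size of change, and the 3 closest in pattern to members with an absolute log2 fold change of at least 0.4. Depth per library was 32923433 to 44644485 counts. Some genes that this rule names are not reported here.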

Additional observations from a re-analysis of the deposited data

Results flagged for a closer look

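In 102 groups of 4 libraries checked, 3 held a library whose gap to its nearest neighbour took up 0.876 or more of the group's whole range, where chance flags about 1 in 20 groups. Slc25a20 stood at 27.1 CPM in BMS309403 replicate 3, against 25.0 to 25.2 CPM in the other treated libraries. Pprc1 stood at 112.0 CPM in control replicate 1, against 85.0 to 88.3 CPM in the other control libraries. She stood at 9.74 CPM in BMS309403 replicate 4, against 11.0 CPM in each of the other treated libraries.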

How the results depend on the processing

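Acadm, Acadl, Hadhb, Acaa2 and Acot2 kept their direction and an adjusted p under 0.05 in all 17 alternatives, with log2 fold changes between -0.28 and -0.24, 0.27 and 0.32, -0.30 and -0.24, -0.45 and -0.38, and 0.96 and 1.07. With the replicate block the count of lower members was 5 and that of higher genes in the other lists 13, Cpt2 (log2 fold change -0.15) and Hadha (-0.10) passed, and no other member's call changed. Cpt2 also passed with DESeq2 size factors (-0.15), by DESeq2's own test (-0.15), at a mean of at least 1 CPM (-0.15) and without both libraries numbered 1 (-0.16), and leaving out 1 library gave -0.17 to -0.11. For Hadha that range was -0.14 to -0.062, and for Cpt1a -0.046 to 0.076, which turned the sign, as did leaving out both libraries numbered 1 (-0.045). Leaving out 1 library gave 5 to 10 higher and 17 to 24 lower genes in the other lists, and the counts over all tested genes moved as well. The cause was not tested. For the ratios, leaving out 1 library gave log2 differences between -0.20 and -0.14 for Hadhb/Hadha, -0.58 and -0.54 for Acadm/Acadl, and -0.23 and -0.09 for Cpt2/Cpt1a. With the longest coding transcript, chosen after seeing the data, control levels per kilobase were 17.2 for Cpt1a, 13.8 for Slc25a20, 17.9 for Acadm, 56.2 for Acadl, 44.0 for Acadvl, 38.7 for Hadha and 31.6 for Hadhb. Depth limits Ppara, Ppargc1a and Acot1.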
